A study of Homo sapiens with 6 samples.

Results

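The transcripts examined were those of 51 regulators of pre-mRNA splicing: SR proteins, the kinases that phosphorylate them, hnRNPs and other RNA-binding regulators of exon choice. They were taken by gene symbol from lists of these families, and 98 probes of the 47321 on the array carry one of their symbols. CLK2 has no probe with its symbol and is named only. The other 50 genes were detected (p-value against negative control beads under 0.01) in 1 or more of the 6 arrays, and they are 50 of the 12013 genes tested.

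SR proteins carry stretches of alternating arginine and serine, bind enhancers in exons and recruit the splicing machinery to nearby splice sites. The hnRNPs coat nascent transcripts and often work against SR proteins by silencing splice sites, so that the balance of both families sets which exons enter the mRNA. CCAR2 acts at this step too: with the zinc finger protein ZNF326 it forms the DBIRD complex, which couples elongation by RNA polymerase II to the inclusion of exons, often in A/T-rich regions.

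The study silenced CCAR2 in U2OS, a human osteosarcoma line, and asked how gene expression responds. Control cells received siLUC (siCTRL in the labels) and the silenced cells a pool of 4 siRNAs against CCAR2 (siCCAR2). RNA was taken 6 days after transfection and hybridized to Human HT12_v4 bead arrays, 3 per group. No untransfected cells and no rescue were among these arrays, so that effects of the siRNA pool on other targets cannot be told apart from those of CCAR2 loss. Letters A to C stand for the siLUC arrays and D to F for the siCCAR2 arrays, as the sections of the chip were lettered. All 6 lay on 1 chip with the groups in neighbouring sections, and a difference due to position cannot be told apart from one due to silencing. Nothing in the labels says that the arrays of a group came from separate cultures, although the study states that the experiment was done in triplicate, and p-values measure the spread between these arrays.

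Between 37.2% and 41.0% of the probes were detected in an array, and the summed signal per array ranged from 3.43e+07 to 4.50e+07. The markers VIM, FN1, COL1A1, SPARC and RUNX2, which mesenchymal and bone-forming cells express, were detected in all 6 arrays, whereas COL1A2 was detected in 0. CDH1, PTPRC and CD3E, markers of epithelial and blood cells, were detected in 0 arrays, KRT14 in 4, PECAM1 in 1 and EPCAM in 6. CCAR2 itself had normalized log2 signals of 11.43, 11.34 and 11.01 in siLUC and of 9.88, 9.96 and 9.91 in siCCAR2, a log2 fold change of -1.34 ± 0.15 (SE; limma, adjusted p = 0.0394). Its groups did not overlap, and the labels of the arrays match its level.

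Most of these splicing regulators gave a slightly lower signal after CCAR2 silencing, and none passed the test. Of the 50 genes, 38 (76%) had a log2 fold change below 0 (siCCAR2 minus siLUC, the direction of every fold change given here), against 49.1% of all genes tested. Their median was -0.10, where that of all genes was 0.0042, and they ranged from -0.59 (TIA1) to 0.34 (SRPK2). A gene was called when its fold change reached 1.5 and its adjusted p did not exceed 0.05 in limma with Benjamini-Hochberg adjustment over the 12013 genes. Called members numbered 0, where 0.025% of all genes were called (3 genes, CCAR2 among them). At an unadjusted p under 0.05, 0 members were higher and 6 (12%) were lower, against 3.49% and 3.01% of all genes. The groups did not overlap in 10 members (20%), each with the siCCAR2 arrays below the siLUC arrays, and in 0 members in the other direction, against 5.68% and 6.35% of all genes. A signal from bulk RNA cannot tell less transcript per cell from fewer cells that hold it.

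**Figure D1:**
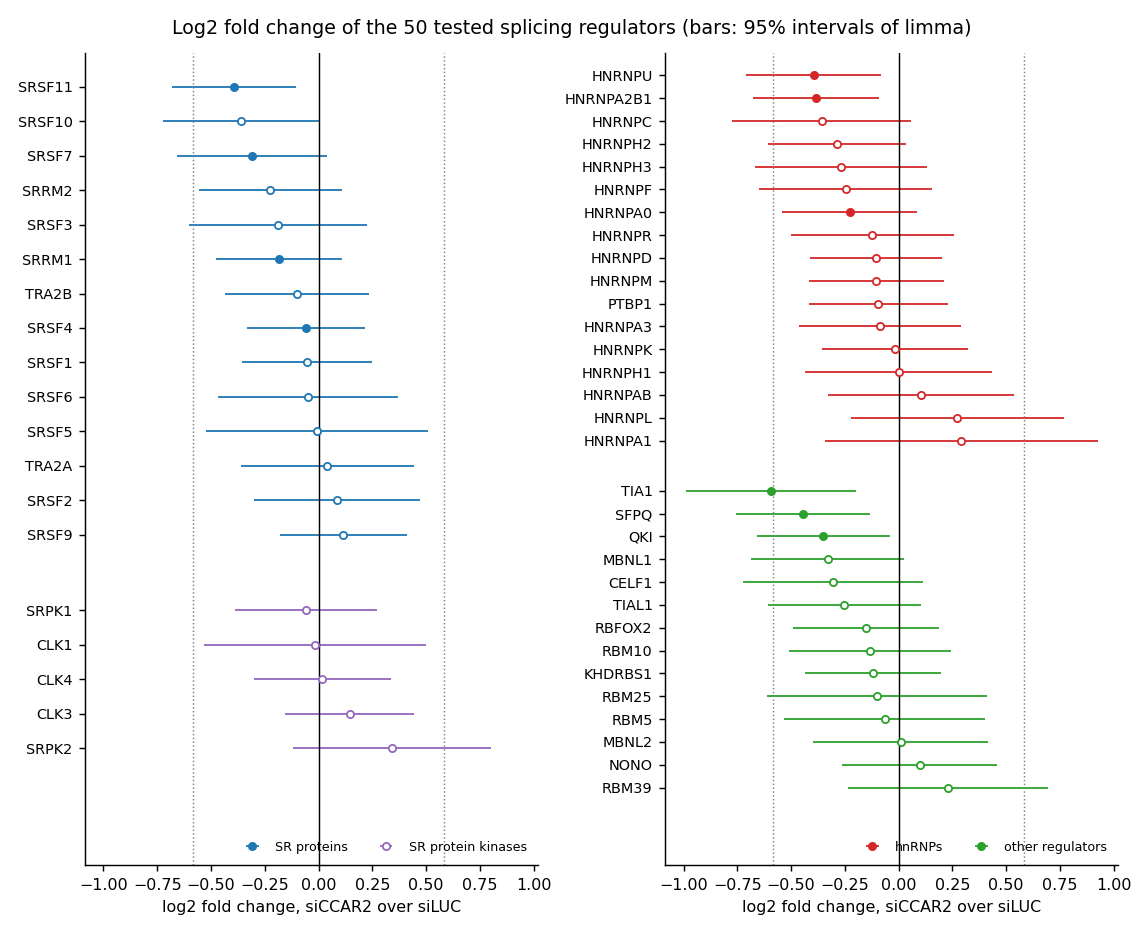
Log2 fold change of siCCAR2 over siLUC (x axis, log2 units) for each of the 50 tested splicing regulators, grouped by class, with 95% intervals from limma; filled points are the 10 members whose groups did not overlap, and dotted lines mark a fold change of 1.5. Points lie below 0 for 38 of 50 members, and TIA1 is the only one past a dotted line.

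The SR proteins were lower in 11 of 14 cases. Their median log2 fold change was -0.079, in a range from -0.39 to 0.12, and only SRSF9, SRSF2 and TRA2A lay above 0. SRSF11, whose protein interacts with U2AF, the factor that recognizes 3′ splice sites, had normalized log2 signals of 10.06, 10.01 and 10.08 in arrays A, B and C and of 9.55, 9.74 and 9.68 in arrays D, E and F. Every siCCAR2 array was below every siLUC array, and the siLUC arrays lay within 0.1 of each other. The log2 fold change was -0.39 ± 0.13 (SE), a fold change of 1.31, with an unadjusted p of 0.0128 and an adjusted p of 0.767 in limma.

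SRSF10, a relative of the SR family that represses splicing when it is dephosphorylated, as during heat shock and mitosis, had signals of 10.08, 10.18 and 10.20 in siLUC and of 9.69, 10.10 and 9.60 in siCCAR2. Array E lay within the siLUC range while D and F lay well below it, so that the groups overlapped. The log2 fold change was -0.36 ± 0.16 (SE; limma, adjusted p = 0.771). For SRSF7, which also helps to export mRNA, the signals were 10.29, 10.29 and 10.67 in siLUC and 9.98, 10.14 and 10.20 in siCCAR2. Its groups did not overlap, and array C alone was far above the rest. The log2 fold change of SRSF7 was -0.31 ± 0.15 (SE; limma, adjusted p = 0.784).

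SRRM1, a coactivator that bridges SR proteins and the spliceosome, and SRSF4 were the other SR-type members without overlap. Their log2 fold changes were -0.18 and -0.057, so that for SRSF4 the separation of the groups came with a change of only a few percent. SRRM2, a scaffold of nuclear speckles, had a log2 fold change of -0.22 with a 95% interval from -0.56 to 0.11. SRSF1, the founding member of the family, had a log2 fold change of -0.054 with an interval from -0.36 to 0.25, which leaves out a change of 1.5-fold in either direction. The remaining members of the class (SRSF2, SRSF3, SRSF5, SRSF6, SRSF9, TRA2A and TRA2B) lay between -0.19 and 0.12.

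The kinases of SR proteins were measured in 5 genes, with a median log2 fold change of 0.018, the value of the dim CLK4, and of 0.064 over those detected in at least 3 arrays. SRPK1 and SRPK2 phosphorylate SR proteins mainly in the cytoplasm and so favour their entry into the nucleus, and the CLK kinases phosphorylate them further in the nucleus. SRPK2 gave signals of 7.93, 7.36 and 7.30 in siLUC and of 8.14, 7.72 and 7.74 in siCCAR2. Array A lay above arrays E and F, so that the groups overlapped, with array D the highest of all. Its log2 fold change was 0.34 ± 0.20 (SE; limma, adjusted p = 0.824). The signals of CLK3 were 9.91, 9.93 and 9.72 in siLUC and 10.02, 9.91 and 10.07 in siCCAR2. The groups overlapped, and the log2 fold change was 0.14 with a 95% interval from -0.16 to 0.45 (limma, adjusted p = 0.857). SRPK1 and CLK1 lay at -0.058 and -0.018. CLK4 was detected in 1 siLUC array and in 0 siCCAR2 arrays, near the background of the array, and its fold change carries no information on direction.

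Among the hnRNPs, 14 of 17 had a log2 fold change below 0. Their median was -0.11, in a range from -0.40 to 0.29, and only HNRNPL, HNRNPA1 and HNRNPAB lay above 0. HNRNPA2B1, an abundant protein of RNA processing and transport, had signals of 14.22, 14.16 and 14.38 in siLUC and of 13.85, 13.91 and 13.84 in siCCAR2. The siCCAR2 arrays lay close together and all were below the siLUC arrays. The log2 fold change was -0.38 ± 0.13 (SE; limma, unadjusted p = 0.0157, adjusted p = 0.767), a fold change of 1.31.

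HNRNPU, which binds scaffold-attachment regions of DNA as well as RNA, had signals of 10.88, 10.58 and 10.84 in siLUC and of 10.31, 10.34 and 10.47 in siCCAR2. Its groups did not overlap, with array B nearest to the siCCAR2 arrays. The log2 fold change was -0.40 ± 0.14 (SE; limma, unadjusted p = 0.0197, adjusted p = 0.767). The other probe of HNRNPU, dimmer but detected in all 6 arrays, gave -0.23 with overlapping groups. HNRNPH2, one of the hnRNPs that bind runs of G, had signals of 8.82, 8.60 and 8.91 in siLUC and of 8.61, 8.39 and 8.47 in siCCAR2. Array D lay just above array B, the point at which the groups overlapped. Its log2 fold change was -0.28 ± 0.14 (SE; limma, adjusted p = 0.784). Of its relatives, HNRNPH3 lay at -0.27, HNRNPF at -0.25 and HNRNPH1 at -0.00033.

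HNRNPA0 was the remaining hnRNP without overlap, with a log2 fold change of -0.23. HNRNPC, which binds U tracts and keeps cryptic exons out of mRNA, had a log2 fold change of -0.36 with a 95% interval from -0.77 to 0.06. HNRNPL, which binds CA repeats, and HNRNPA1, the best known ligand of exonic silencers, were the members of the class furthest above 0. Their log2 fold changes were 0.27 and 0.29, with intervals from -0.22 to 0.77 and from -0.34 to 0.93. The value of HNRNPA1 lay between 0.05 and 0.63 when each array in turn was left out. PTBP1, the polypyrimidine tract-binding repressor, lay at -0.094 and HNRNPK at -0.017. The other hnRNPs (HNRNPA3, HNRNPAB, HNRNPD, HNRNPM and HNRNPR) lay between -0.12 and 0.10.

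The other regulators held the member with the largest fold change, and 11 of 14 lay below 0, with a median log2 fold change of -0.14. TIA1 binds U-rich sequence downstream of weak 5′ splice sites, helps the U1 snRNP to bind there, and gathers in stress granules. Its signals were 10.12, 10.10 and 10.64 in siLUC and 9.57, 9.72 and 9.80 in siCCAR2. All siCCAR2 arrays were below all siLUC arrays, and array C stood well above A and B. The log2 fold change was -0.59 ± 0.17 (SE), with a 95% interval from -0.99 to -0.20, an unadjusted p of 0.00805 and an adjusted p of 0.767 in limma. At a fold change of 1.51 it was the only member past 1.5-fold, a size that 1.94% of all genes reached. Without array C the log2 fold change was -0.42.

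TIA1 was also the only member whose call depended on pairing the arrays. The labels pair none, but the deviations from the group means correlated across genes: by 0.615 in the couple A with D, by 0.665 in B with E, and by 0.440 in C with F. With these couples as a replicate block, limma called TIA1 with an adjusted p of 0.0280, in a fit that called 1.66% of all genes. The couples were chosen from these same arrays, so that p-values with this block can be too small. The other 5 ways to pair the arrays called 0 members. Of all 12013 genes, the pairing A and F, B and E, C and D called 15 and the others called 0. At probe level the block of A with D, B with E and C with F called 1 member probe, of TIA1, and 1.59% of all probes. For the gene, the call was lost in the same fit without arrays A and D (adjusted p = 0.121) or C and F (adjusted p = 0.159), and kept without B and E (adjusted p = 0.0092). At an unadjusted p under 0.05 the fit with the block counted 1 member higher (SRPK2) and 12 (24%) lower, against 9.09% and 8.18% of all genes. Within the couples, 17 members (34%) were lower in each of the 3, and 2 (4%), SRSF2 and SRPK2, were higher in each, where the shares over all genes were 18.6% and 20.2%.

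SFPQ, a DNA- and RNA-binding protein of paraspeckles, had signals of 10.45, 10.16 and 10.31 in siLUC and of 9.77, 9.95 and 9.87 in siCCAR2. The groups did not overlap, and the log2 fold change was -0.44 ± 0.14 (SE; limma, unadjusted p = 0.0106, adjusted p = 0.767). NONO, its usual partner, lay at 0.097 with overlapping groups. A far brighter probe of NONO lay at -0.14, also with overlapping groups, so that the sign depended on the probe. QKI, a STAR-family protein that controls splicing and circular RNA formation, had signals of 8.40, 8.49 and 8.39 in siLUC and of 8.23, 8.09 and 7.92 in siCCAR2. Again every siCCAR2 array was below every siLUC array. Its log2 fold change was -0.35 ± 0.14 (SE; limma, unadjusted p = 0.0308, adjusted p = 0.767).

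MBNL1 and CELF1, which oppose each other in developmental splicing programmes, had log2 fold changes of -0.33 and -0.31 with overlapping groups. Their other detected probes gave -0.24 for MBNL1 and only -0.085 for CELF1, again with overlapping groups. TIAL1, the close relative of TIA1, lay at -0.25 and RBM39, a U2AF-related factor, at 0.23. The brighter probes of TIAL1 lay at 0.0076 and 0.046, so that its fall was seen only with its dimmest detected probe. The others of the class (RBFOX2, KHDRBS1, RBM5, RBM10, RBM25, MBNL2 and NONO) lay between -0.15 and 0.097. In an exact two-sided permutation test, each of the 10 members without overlap had a p of 0.1, the smallest that 3 arrays against 3 can give over 20 regroupings.

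**Figure D2:**
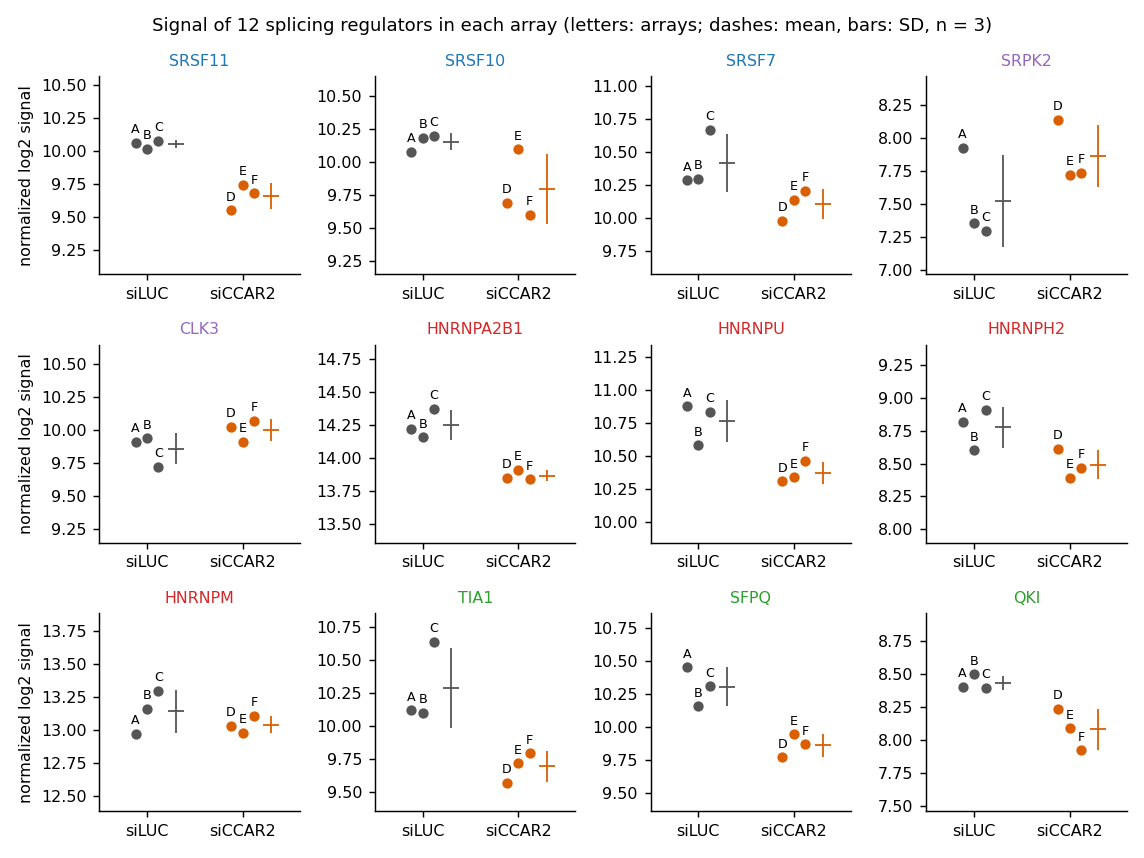
Normalized log2 signal (y axis, a separate scale of the same span in each panel) of the 12 regulators given array by array, with siLUC arrays A to C in grey and siCCAR2 arrays D to F in orange; dashes are means and bars SD (n = 3). The orange points lie wholly below the grey ones for SRSF11, SRSF7, HNRNPA2B1, HNRNPU, TIA1, SFPQ and QKI, and overlap with them for SRSF10, SRPK2, CLK3, HNRNPH2 and HNRNPM.

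Among the siCCAR2 arrays, D and F had the lowest medians of SR proteins, hnRNPs and other regulators. As a deviation from each gene's mean over the 6 arrays (log2 units), the median SR protein lay at -0.13 in D, 0.10 in E and -0.12 in F. The median hnRNP lay at -0.11, 0.039 and -0.11, and that of the other regulators at -0.16, 0.032 and -0.21, in the same order. The siLUC arrays had medians of 0.024 to 0.16 in these classes. Arrays D and F lay below every siLUC array in each of these classes. Array E lay above the siLUC arrays for SR proteins, among them for hnRNPs and below them for the other regulators. The kinases differed, with medians of 0.086 in D, 0.027 in E and -0.069 in F, and from -0.21 to 0.019 in the siLUC arrays. Array E had the highest median raw signal of the 6 arrays (123.352, against 105.931 to 114.506), and the part of signal level in this difference was not tested. Without array E, the median log2 fold change of the other regulators was -0.27. Set against its couple in the block, which was chosen from these data, each siCCAR2 array was lower in a like number of the 50 members. D was below A in 34, E below B in 32 and F below C in 35. Among all 12013 genes these counts were 5744, 5873 and 6138. The spread within groups was like that of other genes, with a median SD of 0.186 for members and 0.193 for all genes.

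**Figure D3:**
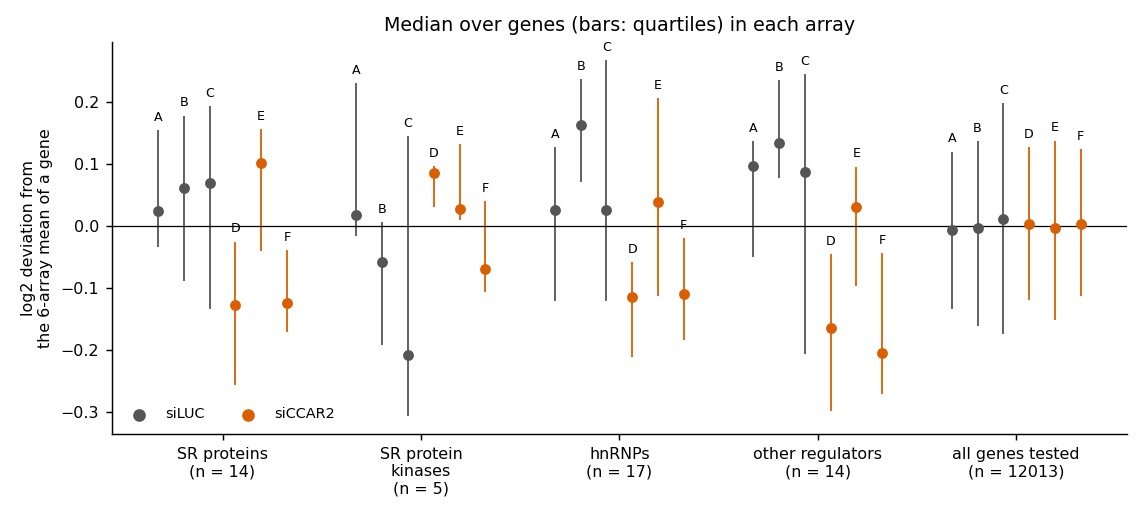
Median (points) and quartiles (bars) over the genes of each class of the log2 deviation from a gene's 6-array mean (y axis), in siLUC arrays A to C (grey) and siCCAR2 arrays D to F (orange), with all 12013 genes at the right. For SR proteins, hnRNPs and other regulators, arrays D and F lie below 0 and array E above it, while all genes stay near 0 in each array.

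Many of these genes have several probes, which read different stretches of their transcripts. Of the 98 probes, 90 were detected in at least 1 array. Called probes numbered 0, against 0.0187% of all detected probes with 1 symbol, and 10 were lower and 0 higher at an unadjusted p under 0.05, against 2.96% and 3.41%. In 27 genes with several detected probes, all probes lay below 0 in 16, all above 0 in 2, and 9 were mixed. This split was not counted over all genes, and probes of 1 gene are not independent. Over the 55 pairs that the probes of these 27 members form, 70.9% had the same sign, near the 66.9% of the pairs of all genes. The difference between the log2 fold changes of a pair was tested in limma over all 4957 pairs of the array. Called pairs numbered 0 among members, as among all genes, where 0% were called, and at an unadjusted p under 0.05 there were 7 member pairs (12.7%), against 7.99% of all pairs. With the block, 0 member pairs were called (0.121% of all pairs), and 9 (16.4%) passed an unadjusted p of 0.05, against 11.3%.

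The probes of TIA1 lay on the same side but differed in size. The probe that carried the gene-level value gave -0.59, and another designed on the same transcript record gave -0.22, with signals of 11.58, 11.37 and 11.76 in siLUC and of 11.42, 11.26 and 11.37 in siCCAR2. The groups overlapped for that probe. The remaining probe, designed on another transcript record, gave 10.02, 9.97 and 9.89 in siLUC and 9.79, 9.65 and 9.73 in siCCAR2, without overlap and with a log2 fold change of -0.23. The difference of -0.38 between the first pair had an unadjusted p of 0.0276 in limma and an adjusted p of 0.602. A fold change past 1.5 was thus seen with 1 of 3 TIA1 probes. QKI had 3 probes below 0, at -0.35, -0.32 and -0.18, the first pair without overlap of the groups. Among members whose gene-level groups overlapped, further probes without overlap were found for SRSF3 (-0.37), HNRNPH1 (-0.32), HNRNPH3 (-0.31), RBM10 (-0.26) and HNRNPR (-0.22). In total, 17 of the 90 member probes were lower without overlap and 0 were higher. Of all 16021 probes tested, 930 were lower and 1004 higher without overlap.

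Probes of opposite sign were found in SRSF10, SRPK2, HNRNPA2B1, HNRNPH2 and HNRNPM, the 5 members with a pair of opposite sign at an unadjusted p under 0.05 (9.09% of member pairs, against 5.77% of all pairs). The other SRSF10 probe, designed on the same transcript record, had signals of 9.00, 9.20 and 8.70 in siLUC and of 8.90, 9.30 and 9.21 in siCCAR2. Its groups overlapped, and its log2 fold change was 0.16 where the first probe gave -0.36. The difference was -0.52 ± 0.18 (SE; limma, adjusted p = 0.563).

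SRPK2 showed the widest gap. Against the 0.34 given above, a probe designed on another transcript record had signals of 7.97, 7.82 and 8.51 in siLUC and of 7.73, 7.82 and 7.66 in siCCAR2, a log2 fold change of -0.36. The groups overlapped for both probes, and the remaining probe lay at 0.016. The difference between the first pair was 0.70 ± 0.26 (SE; limma, adjusted p = 0.593), so that no direction can be given for SRPK2.

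For HNRNPA2B1, the probe that gave -0.38 stood against 3 others at -0.099, -0.087 and 0.023. The last of these had signals of 10.73, 10.55 and 10.97 in siLUC and of 10.55, 10.84 and 10.93 in siCCAR2, with overlapping groups. It was designed on another transcript record, and the difference from the first was -0.41 ± 0.14 (SE; limma, adjusted p = 0.573). Groups without overlap were therefore seen with 1 of the 4 HNRNPA2B1 probes.

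HNRNPH2 had another probe at 0.058, with signals of 10.46, 10.22 and 10.28 in siLUC and of 10.39, 10.36 and 10.38 in siCCAR2. Its groups overlapped, and the difference from the first probe was -0.34 ± 0.14 (SE; limma, adjusted p = 0.602). HNRNPM, a protein that binds GU-rich sequence, had 4 probes. The one chosen for the gene had signals of 12.97, 13.16 and 13.30 in siLUC and of 13.03, 12.98 and 13.11 in siCCAR2, with overlapping groups and a log2 fold change of -0.10. Its opposite pair was made of a probe at 0.078, with signals of 12.47, 12.72 and 12.53 in siLUC and of 12.66, 12.62 and 12.68 in siCCAR2, and a dim probe with signals of 7.13, 7.48 and 7.40 against 6.97, 7.22 and 7.03. The dim probe was detected in 2 siLUC arrays and in 0 siCCAR2 arrays. Its groups overlapped, and the pair rests on a probe near background.

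**Figure D4:**
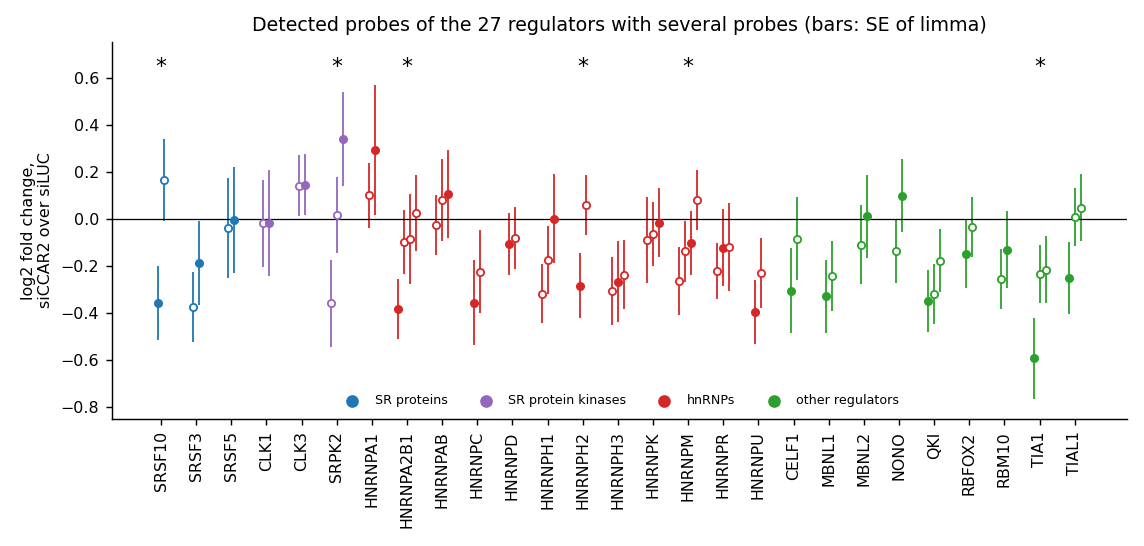
Log2 fold change of siCCAR2 over siLUC (y axis, log2 units; bars are SE from limma) of each detected probe of the 27 regulators with several probes, filled for the probe that stands for the gene. Asterisks mark the 6 genes with a pair at an unadjusted p under 0.05, of which TIA1 has all 3 probes below 0 and the other 5 have probes on both sides.

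Promoters are shown for TIA1, with the largest fold change, and for SRSF10 and HNRNPA2B1, whose probes differed in sign, as the start regions from which these transcripts arise. They come from RefSeq on GRCh38.p14 and are printed 5′ to 3′ on the gene's strand, which is the minus strand in each case. Each stretch runs from 100 bases before the annotated start through the first 20 transcribed bases, which are in capitals. They lie at chr2:70248774-70248893 for TIA1 (the first of its annotated starts), chr1:23980308-23980427 for SRSF10 and chr7:26200727-26200846 for HNRNPA2B1.
TIA1: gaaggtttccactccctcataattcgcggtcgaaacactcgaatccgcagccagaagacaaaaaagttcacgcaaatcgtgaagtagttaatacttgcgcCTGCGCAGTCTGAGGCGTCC
SRSF10: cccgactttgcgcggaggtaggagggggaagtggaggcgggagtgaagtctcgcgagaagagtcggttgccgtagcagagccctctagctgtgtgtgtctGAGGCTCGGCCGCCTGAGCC
HNRNPA2B1: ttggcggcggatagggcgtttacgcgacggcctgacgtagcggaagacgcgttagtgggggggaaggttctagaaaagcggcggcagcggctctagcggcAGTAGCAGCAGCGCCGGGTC

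Windows from 250 bases before a start to 50 after it were at hand for 43 of the 50 members, 69 windows in all, and 4 short motifs were searched in them on both strands. The CCAAT box was present in 39.1% of member windows and in 35.2% of those of all tested genes. For the GC box GGGCGG the shares were 55.1% and 64.7%, for the ETS core CCGGAAG 10.1% and 16.3%, and for TATAAA 11.6% and 6.57%. None of the 4 occurs in the stretches printed for TIA1, SRSF10 and HNRNPA2B1. Windows of 1 gene can overlap and share a match, and the matches were not set against the fold changes.

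The other subunit of DBIRD and the paralog of CCAR2 were read beside the members. CCAR1, the paralog, had signals of 8.14, 8.37 and 8.47 in siLUC and of 7.93, 7.98 and 7.98 in siCCAR2. Its groups did not overlap, and the log2 fold change was -0.36 ± 0.14 (SE; limma, unadjusted p = 0.0267, adjusted p = 0.767). For ZNF326, the subunit, the signals were 8.34, 8.54 and 7.88 in siLUC and 8.15, 8.55 and 7.83 in siCCAR2, a log2 fold change of -0.079 with overlapping groups. CCAR1 thus lay within the range of the lower SR proteins and hnRNPs, and neither gene was called.

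Further splicing regulators, among them less studied relatives of the same families (87 listed, 66 tested), were read in the same fit. Their log2 fold changes lay below 0 in 43 (65.2%) and above 0 in 23, with a median of -0.052, and 0 were called. At an unadjusted p under 0.05, 1 (1.52%) was higher and 3 (4.55%) were lower, shares near the 3.49% and 3.01% of all genes. PCBP2, a poly(C)-binding protein, had signals of 8.50, 8.58 and 8.19 in siLUC and of 7.83, 8.03 and 7.79 in siCCAR2. Its groups did not overlap, and the log2 fold change was -0.54 ± 0.15 (SE; limma, adjusted p = 0.747). With the probe of highest mean signal for each gene, PCBP2 gave -0.18, and so did PPIG.

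PPIG, a cyclophilin with a domain rich in arginine and serine, gave 7.73, 8.09 and 8.14 in siLUC and 7.49, 7.70 and 7.43 in siCCAR2, a log2 fold change of -0.45 (limma, adjusted p = 0.767). MBNL3, a relative of MBNL1, gave 8.34, 7.43 and 8.43 in siLUC and 7.66, 7.18 and 7.08 in siCCAR2. The groups overlapped through array B for MBNL3 and did not overlap for PPIG. The log2 fold change of MBNL3 was -0.76 ± 0.27 (SE; limma, adjusted p = 0.767), and with the replicate block given above it was called (adjusted p = 0.0283). It was detected in 3 siLUC arrays but in only 1 siCCAR2 array, so that its fold change was read against signals mostly not above background. Its call was lost in that fit without arrays C and F (-0.47, adjusted p = 0.159), with neqc (adjusted p = 0.115) and with median scaling (adjusted p = 0.127). PCBP4, a relative of PCBP2, was higher in all siCCAR2 arrays, at 10.88, 10.99 and 10.50 in siLUC and 11.44, 11.16 and 11.17 in siCCAR2, with a log2 fold change of 0.46 (limma, adjusted p = 0.767).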

How the data were processed

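Total RNA of U2OS cells was profiled on HT12_v4 bead arrays, 3 with siLUC and 3 with siCCAR2. The authors deposited a non-normalized signal per probe, which is a linear intensity, together with its detection p-value against negative controls. BeadStudio 3.8 is the software given in the labels. The authors also deposited normalized intensities, which served only as an alternative. These lay within a relative gap of 0.0053 of the quantile-normalized signals. The robust spline normalization of the methods was not run, and quantile normalization stood in for it.

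Signals were log2 transformed and quantile normalized with no background correction. Kept were probes with 1 gene symbol (30112) that were detected, at a p-value under 0.01, in 1 or more arrays (16021). A gene was read by its probe with the most arrays detected, ties going to the highest interquartile range, which gave 12013 genes. Groups were compared in limma 3.58.1 (lmFit, eBayes; R 4.3.3) without a block, since the labels pair no arrays, and Benjamini-Hochberg adjustment covered all genes, probes or probe pairs. Single genes were also given an exact two-sided permutation test. Plots were made in Python 3.11.15 with matplotlib 3.10.9.

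Values in every array are given for the 3 members of smallest p per class (2 for the kinases), members called in any fit with or without the block, members with a probe pair of opposite sign at an unadjusted p under 0.05, the 4 further regulators of smallest p and the called ones, and CCAR2, CCAR1 and ZNF326. Other genes given with a value were picked after their values had been seen. Members, lists and rules were chosen with earlier results of these data known. As alternatives, normalization was changed to neqc (offset of 16), cyclic loess, median scaling or the deposited values, the filter to detection in at least 3 arrays or none, and the probe of a gene to that of highest mean signal. Trend and robust estimation, array weights, a 2-fold threshold with an adjusted p of at most 0.01, no fold threshold, a replicate block under all 6 pairings and leaving out each array were tried too. The block combined with other choices was added after the data had been seen. The number of arrays limits the precision.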

Additional observations from a re-analysis of the deposited data

How the results depend on the processing

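No member was called in any alternative without the replicate block that couples A with D, B with E and C with F. That block called 1 member and 1 member probe, TIA1 at -0.59, and it called MBNL3 at -0.76 among the further regulators. Combinations with it were chosen after seeing the data. TIA1 was the 1 member called with cyclic loess (202 of 12013 genes called), trend and robust estimation (172) or without arrays B and E (505). Called members numbered 0 with neqc (68 genes called), with median scaling (46) and without A and D (142) or C and F (170). Members lower at an unadjusted p under 0.05 numbered 12 with this block (8.18% of all genes), 3 with the pairing A and E, B and F, C and D (1.85%), 11 with array weights (8.98%) and 4 to 8 when 1 array was left out (1.26% to 8.46%). Those higher numbered 1 with this block and 0 to 1 when 1 array was left out. Between 33 and 45 members lay below 0 over all alternatives.

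Median scaling alone moved the median of all genes to -0.10. It gave medians of -0.21 (SR proteins), -0.22 (hnRNPs), -0.26 (other regulators) and -0.17 (further regulators), and array weights gave -0.21 for SR proteins. The kinases were the only class whose median changed sign, to -0.030 with median scaling, -0.020 with array weights and -0.016 without array D. With 1 array left out the medians were -0.17 to -0.051 (SR proteins), -0.18 to -0.072 (hnRNPs), -0.27 to -0.12 (other regulators), -0.016 to 0.11 (kinases) and -0.079 to -0.041 (further regulators).

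When each array was left out in turn, 17 of the 50 members changed sign at least once, all with log2 fold changes between -0.10 and 0.10, SRSF1, SRPK1, CLK1, HNRNPK, PTBP1 and NONO among them. The probe of highest mean signal gave 0.058 for HNRNPH2 and 0.046 for TIAL1, and array weights gave 0.018 for HNRNPM. ZNF326 lay between -0.27 and 0.093 with 1 array left out.

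CCAR2 stayed between -1.48 and -1.25 but missed the threshold with neqc (-1.41, adjusted p = 0.102), median scaling (-1.48, adjusted p = 0.0682), the probe of highest mean signal for each gene (-1.34, adjusted p = 0.0596) and 4 other pairings as the block (-1.34, adjusted p of at least 0.113). Leaving out 1 array gave -1.47 to -1.25, past the threshold only without array B. The cause was not tested. By its threshold the call leaves out changes under 1.5-fold. Of the members, 49 were detected in all arrays and CLK4 was not. Dim signals were not corrected for background in the main fit. With neqc, which corrects for it, SRPK2 moved from 0.34 to 0.53 and QKI from -0.35 to -0.46, while HNRNPA2B1 stayed at -0.38.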
